A study of Mus musculus with 6 samples.

Results

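Netrin ligands, their receptors of the Dcc and Unc5 families, neogenin and the neogenin ligand Rgma were followed in cultured mouse cerebellar granule cells (GCs) after knockdown (KD) of YTHDF2, a reader protein of the RNA mark m6A. The list held 10 genes, chosen by name, of which 9 were matched to a row among the 53421 genes of the deposited count table. All 9 passed the filter on low counts and were tested among 17214 genes. Ntn3 is listed in the GRCm38 annotation under an identifier that matched no row, and it is not analysed here.

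Netrins are secreted, laminin-related proteins that steer growing axons and migrating neurons. Dcc and neogenin are the receptors through which netrin-1 attracts, and the Unc5 proteins turn the response into repulsion, alone or together with Dcc. Rgma binds neogenin and acts as a repulsive cue. In the developing cerebellum, granule cells are known to express Unc5 genes, and Unc5c is known for setting the borders that migrating granule cells do not cross.

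The 6 libraries came from GCs of C57BL/6 mouse pups, labelled postnatal day 8, that were infected in culture with lentivirus. The 3 shYthdf2 libraries carried hairpin number 3 against Ythdf2 and the 3 shCtrl libraries a control hairpin, and both were selected with puromycin. Library names carry the numbers 1, 2 and 4 within each group. The study's methods describe the libraries of a group as biological replicates, without saying whether each number was a separate culture or litter. With 1 hairpin against Ythdf2 in these libraries, what KD of YTHDF2 and what this hairpin alone did cannot be told apart. The library names were followed for the groups, because the titles and genotypes of the samples give them the other way round, and with the titles every direction below would be inverted. Each library held 17246821 to 21546595 counts. Ythdf2 itself had 620, 843 and 630 normalized counts in shCtrl libraries 1, 2 and 4 and 502, 403 and 502 in the shYthdf2 libraries. All the shYthdf2 libraries were below all the shCtrl libraries, at 67.3% of the shCtrl mean (estimated log2 difference -0.57 ± 0.16, SE, edgeR adjusted p = 0.125). Within numbers 1, 2 and 4 the log2 differences of Ythdf2 were -0.30, -1.06 and -0.33, the largest being that of number 2. Its paralog Ythdf1 was at 82.8% of the shCtrl mean, without overlap of the groups (log2 fold change -0.27 ± 0.11, SE, edgeR adjusted p = 0.214). With DESeq2 the adjusted p of Ythdf2 was 0.0392, within 0.00124 to 0.363 over 15 alternatives.

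The number 2 libraries stood apart from the others. The root mean square difference over genes was 0.35 on the log2 scale between libraries 1 and 4 of either group. Library 2 differed from libraries 1 and 4 of its own group by 0.71 and 0.74 (shCtrl) or 0.59 and 0.61 (shYthdf2), while the number 2 libraries of the opposite groups differed by 0.49. Values are therefore given by library, and differences also within each number. Granule cell genes were abundant, with Zic1 at 60810 to 66564 normalized counts, and 0 of the 10 granule cell markers were at 0. Markers of other cells were also present. The 9 oligodendrocyte lineage markers summed to 5345, 17959 and 5155 normalized counts in shCtrl libraries 1, 2 and 4, and to 13802, 18383 and 14258 in the shYthdf2 libraries. The 8 markers of astrocytes and Bergmann glia summed to 5315, 11822 and 5415 against 10724, 10213 and 10570. Every one of the 9 oligodendrocyte lineage markers and 7 of the 8 astrocyte markers were lowest in shCtrl libraries 1 and 4, and none of these 17 markers was at 0. In such bulk libraries, fewer cells of a type and less RNA per cell cannot be told apart.

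The receptors and ligands differed widely in level. Counted per kilobase of all exons of the gene, Unc5b had the highest level in the shCtrl libraries, at 1372.5 ± 48.1 normalized counts per kilobase (SD, n = 3), above 96.8% of the genes tested. Ntn4 followed at 755 ± 131, Unc5c at 573 ± 55.8, Neo1 at 471.5 ± 54.5 and Ntn1 at 275 ± 169. Lower levels were those of Unc5a (184 ± 39.1), Rgma (127 ± 27.1), Unc5d (33.5 ± 10.6) and Dcc (13.96 ± 1.06). Dcc, the receptor for attraction to netrin-1, thus lay above only 19.9% of the genes tested. The shCtrl libraries of neighbours in this order overlapped between Unc5c and Neo1, between Neo1 and Ntn1 and between Ntn1 and Unc5a, and did not overlap between the other neighbours. The length used matters for Unc5c, whose exons add up to 19135 bases against 9646 in its longest transcript. Counted over the longest transcript, Unc5c came second with 1137 ± 111, ahead of Ntn4 with 775 ± 135, and Unc5b stayed first with 1463.5 ± 51.25. Rgma (196 ± 41.8) and Unc5a (192 ± 40.8) also changed places, and their libraries overlapped.

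After YTHDF2 KD, 0 of the 9 genes had an adjusted p-value under 0.05 in edgeR's test, where 0.604% of all genes tested did. DESeq2 called 1 (Unc5d), where it called 7.67% of all genes, and limma-voom called 0. With a term for the number 2 libraries 3 passed (Ntn4, Dcc and Unc5d, against 22.1% of all genes), and without shCtrl library 2 also 3 (Ntn1, Unc5a and Unc5d, against 18.3%). With numbers 1 and 4 alone, a fit chosen after the data were seen, 8 passed, against 52.7% of all genes. At an unadjusted p under 0.05 there were 2, Unc5a and Unc5d, both higher in shYthdf2 libraries, against 20.1% of all genes in either direction and 9.5% in this one. With the library number as a block there were 4, which were these and Ntn4 and Dcc, against 31.6% of all genes, and with the number 2 term 5 (Unc5b as well), against 39.5%. All 9 log2 fold changes were above 0, as were 50.8% of those of all genes, from 0.01 for Unc5c to 0.90 for Unc5d, with a median of 0.27 against 0.01 for all genes tested. In 4 of the 9 genes (Dcc, Unc5a, Unc5b and Unc5d) the shYthdf2 libraries all exceeded the highest shCtrl library, as in 12.6% of all genes, while 26.0% were free of overlap in either direction. In 7 of the 9 genes, shCtrl libraries 1 and 4 were the lowest of the 6, as in 21.9% of all genes tested.

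**Figure D1:**
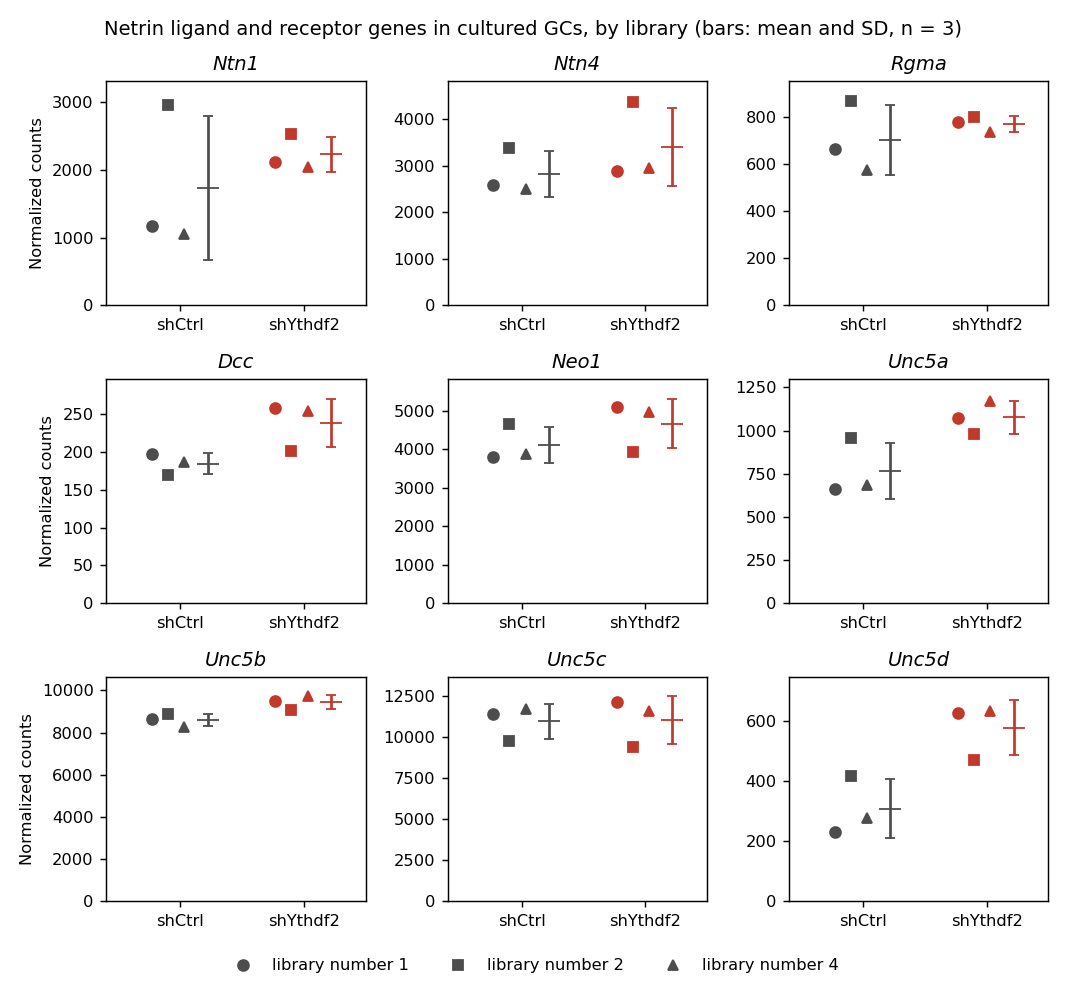
Normalized counts of the 9 genes in each library (y axis from 0), with the 3 library numbers as separate symbols and the mean and SD of each group (n = 3) beside them. The shYthdf2 points lie above all shCtrl points for Dcc, Unc5a, Unc5b and Unc5d, and the shCtrl points of Ntn1 are split, with library 2 at 2955 and the others at 1170 and 1062.

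The Unc5 receptors are closely related proteins with an intracellular death domain, and their log2 fold changes ran from 0.01 to 0.90. Unc5d (ENSMUSG00000063626, chromosome 8 of GRCm38 from 28646717 to 29219636) had 231, 418.5 and 277.5 normalized counts in shCtrl libraries 1, 2 and 4 and 627, 472 and 634 in the shYthdf2 libraries. The groups did not overlap, and the lowest shYthdf2 and the highest shCtrl values were both those of library 2. The means were 309 ± 97.6 and 578 ± 91.4 (SD, n = 3), a log2 fold change of 0.90 ± 0.24 (SE, edgeR adjusted p = 0.109). Within numbers 1, 2 and 4 the log2 differences were 1.44, 0.17 and 1.19. Its adjusted p was 0.0111 with DESeq2, 0.0449 without the filter, 0.0392 with a term for the number 2 libraries and 0.00812 without shCtrl library 2, and it ranged from 1.14e-08 to 0.373 over 15 alternatives.

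Unc5a (ENSMUSG00000025876, chromosome 13 from 54949411 to 55006018), a netrin-1 receptor linked to cell death when no ligand is bound, had 664, 955.5 and 683 normalized counts in shCtrl libraries 1, 2 and 4. In the shYthdf2 libraries it had 1074, 982.5 and 1173.5. The groups were separate only by the small gap between their number 2 libraries. The log2 fold change was 0.49 ± 0.16 (SE, edgeR adjusted p = 0.161), with 0.69, 0.04 and 0.78 within numbers 1, 2 and 4. Without shCtrl library 2 the adjusted p was 0.00945, within 1.26e-07 to 0.481 over the 15 alternatives. Hk3 shares exon positions with Unc5a on the other strand and reached no more than 71 counts, where Unc5a never had fewer than 620. The sources used here do not state whether strand was kept in counting.

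The more abundant paralogs had smaller log2 fold changes. Unc5b (ENSMUSG00000020099, chromosome 10 from 60762593 to 60831581), which also guides blood vessels, had 8630, 8867 and 8270 normalized counts in shCtrl libraries 1, 2 and 4 and 9493, 9073 and 9738 in the shYthdf2 libraries. The groups did not overlap, with a log2 fold change of 0.14 ± 0.09 (SE, edgeR adjusted p = 0.447). Unc5c (ENSMUSG00000059921, chromosome 3 from 141465216 to 141834924) had 11422, 9744 and 11727 against 12157, 9413 and 11558. Its groups overlapped, both number 2 libraries were the lowest of their group, and the log2 fold change was 0.01 ± 0.13 (SE, edgeR adjusted p = 0.974), turning to -0.07 without shCtrl library 2. Gm15688, antisense to Unc5c at its exons, reached no more than 129 counts, where Unc5c never had fewer than 9686.

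The composition of the Unc5 transcripts was compared as well, in shares of the summed counts per kilobase. Unc5b held 63.4% ± 1.20 of them in shCtrl and 62.75% ± 2.03 in shYthdf2 libraries (SD, n = 3), and Unc5c 26.5% ± 2.99 and 23.9% ± 1.79. Unc5a held 7.38%, 10.4% and 7.70% in shCtrl libraries 1, 2 and 4 and 10.4%, 10.6% and 11.2% in the shYthdf2 libraries. Unc5d held 1.16%, 2.06% and 1.41% against 2.74%, 2.30% and 2.74%. Only the share of Unc5d did not overlap between the groups (two-sided exact permutation test, p = 0.1, or 0.4 when adjusted over the 4 paralogs, where 0.1 is the lowest value this design can give). The share of Unc5a gave p = 0.2 in the same exact test. The summed Unc5 level was 4.49 ± 0.408 times that of Dcc and Neo1 together in shCtrl and 4.38 ± 0.357 times in shYthdf2 libraries (exact permutation test on the log2 ratio, p = 0.9, n = 3).

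**Figure D2:**
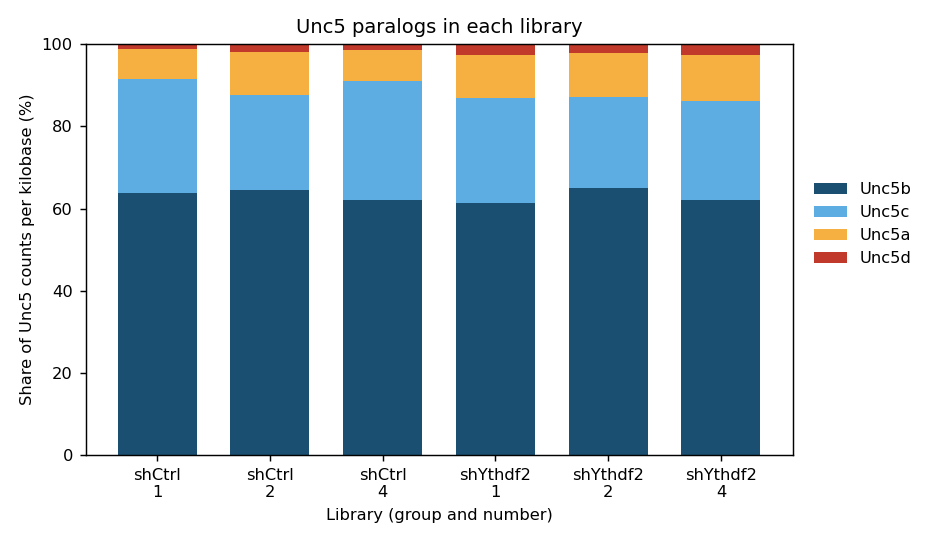
Share of each Unc5 paralog in the summed Unc5 counts per kilobase of exon (y axis, percent) in the 6 libraries. Unc5b and Unc5c make up most of every bar, and the Unc5a and Unc5d segments together are 8.54% and 9.11% in shCtrl libraries 1 and 4 and 12.5% to 13.95% in the other 4 libraries.

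The Unc5 genes were also compared for the letters GGACT, the DNA spelling of the sequence in which m6A, the mark that YTHDF2 binds, is most often found. No m6A was measured in these libraries, and a match only describes the sequence. Searched on the transcript's own strand, the coding sequences held 4 matches in Unc5a, 4 in Unc5b, 6 in Unc5c and 6 in Unc5d, or 1.48, 1.41, 2.11 and 2.09 per kilobase. The median over 13719 coding sequences of genes tested was 1.07 per kilobase, and 77.4% of these sequences held at least 1 match. The last match of each coding sequence before the stop codon is shown, with the motif in capitals and 10 bases on each side. It was chosen because m6A is known to gather near stop codons, and the paralogs differ in its distance from the stop codon.
Unc5a: agctgtggccGGACTgggccagcca
Unc5b: gagctggagaGGACTctgggtggct
Unc5c: ccagcaccgaGGACTggaagatcca
Unc5d: caggcaaaatGGACTctagtctgtt
The windows, read from transcripts of the GENCODE annotation of GRCm38, lie at chr13:55004908-55004932 (plus strand, exon 16 of 16 of Unc5a-201), chr10:60769224-60769248 (minus strand, exon 14 of 17 of Unc5b-201), chr3:141801389-141801413 (plus strand, exon 12 of 17 of Unc5c-201) and chr8:28652762-28652786 (minus strand, exon 18 of 18 of Unc5d-201). From the motif to the last base before the stop codon there were 46 bases in Unc5a, 636 in Unc5b, 935 in Unc5c and 1 in Unc5d. Matches beyond the stop codon were not placed, and no relation of the motif to the fold changes was tested.

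Dcc and neogenin, the other receptors, had smaller log2 fold changes than Unc5d, and the difference between these genes was not tested. Dcc (ENSMUSG00000060534, chromosome 18 from 71253634 to 72351069) had 197, 169 and 186 normalized counts in shCtrl libraries 1, 2 and 4 and 258, 201 and 253 in the shYthdf2 libraries. The groups did not overlap, and library 2 was the lowest in each. The log2 fold change was 0.37 ± 0.16 (SE, edgeR adjusted p = 0.265), and within numbers 1, 2 and 4 the differences were 0.39, 0.25 and 0.44. With a term for the number 2 libraries the adjusted p was 0.0484, within 0.00608 to 0.61 over the 15 alternatives. Neo1 (ENSMUSG00000032340, chromosome 9 from 58874687 to 59036441) had 3801, 4657 and 3871 against 5095, 3927 and 4968. Its groups overlapped, since library 2 was the highest in shCtrl and the lowest in shYthdf2, and the differences within numbers were 0.42, -0.25 and 0.36 (estimated log2 difference 0.18 ± 0.14, SE, edgeR adjusted p = 0.505). Left-out single libraries moved that estimate between 0.11 (without shYthdf2 library 1) and 0.29 (without shYthdf2 library 2). Dcc held 2.91% ± 0.504 of the Dcc and Neo1 counts per kilobase in shCtrl and 3.26% ± 0.0192 in shYthdf2 libraries (SD, n = 3), with overlapping groups.

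Among the ligands, Ntn1 (ENSMUSG00000020902, chromosome 11 from 68209364 to 68400823), the classical attractant, varied most between libraries of 1 group. It had 1170, 2955 and 1062 normalized counts in shCtrl libraries 1, 2 and 4 and 2117, 2533 and 2051 in the shYthdf2 libraries. The shYthdf2 libraries lay between the shCtrl values, and the differences within numbers 1, 2 and 4 were 0.86, -0.22 and 0.95. The log2 fold change was 0.37 ± 0.37 (SE, edgeR adjusted p = 0.623). It was 0.11 without shCtrl library 4 and 0.15 without shCtrl library 1. Without shCtrl library 2 it was 1.00 with an adjusted p = 0.00475, and over 15 alternatives the adjusted p ranged from 1.40e-09 to 0.925. Ntn4 (ENSMUSG00000020019, chromosome 10 from 93640681 to 93747207), a netrin that binds laminin in basement membranes, had 2583, 3392 and 2503 against 2898, 4366 and 2962. Library 2 was the highest in each group and the groups overlapped, but the shYthdf2 library was the higher within each number, by 0.17, 0.36 and 0.24 (estimated log2 difference 0.27 ± 0.19, SE, edgeR adjusted p = 0.483). With a term for the number 2 libraries the adjusted p was 0.0255, within 1.91e-04 to 0.87 over the 15 alternatives, and without shYthdf2 library 2 the log2 fold change was 0.05. Rgma (ENSMUSG00000070509, chromosome 7 from 73375509 to 73419899) had 667, 868 and 575 against 779, 803 and 737, a log2 fold change of 0.14 ± 0.16 (SE, edgeR adjusted p = 0.679). Its shYthdf2 libraries all lay between the shCtrl values, and the fold change was 0.00 without shCtrl library 4 and 0.32 without shCtrl library 2. A730056A06Rik, antisense to Rgma at its exons, reached no more than 35 counts, where Rgma never had fewer than 522.

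**Figure D3:**
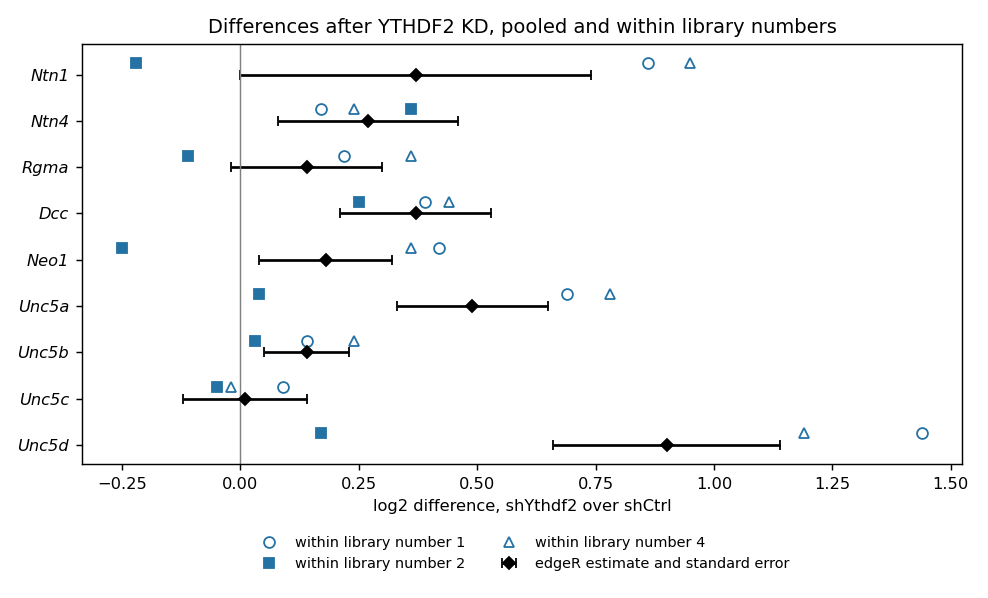
Log2 differences of shYthdf2 over shCtrl libraries for the 9 genes (x axis): the edgeR estimate with its standard error, and the difference within each library number. For 8 of the 9 genes the smallest difference is that within number 2, the exception being Ntn4, and for Ntn1, Rgma, Neo1 and Unc5c it is below 0.

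The number 2 libraries were closer to each other than the other pairs also in the oligodendrocyte and astrocyte markers. Within number 2 the oligodendrocyte lineage sum was 17959 in shCtrl and 18383 in shYthdf2, and the log2 differences were 0.17 for Unc5d, 0.04 for Unc5a and -0.22 for Ntn1. Within numbers 1 and 4, where these 3 genes differed by 0.69 to 1.44, the same sum was 5345 and 5155 in shCtrl against 13802 and 14258 in shYthdf2. At an unadjusted p under 0.05, 1 of the 8 astrocyte markers (Aqp4) was higher in shYthdf2 libraries, as were 9.5% of all genes tested. The part of glial cells in the values of Ntn1, Unc5a and Unc5d was not tested. Microglia markers, of which P2ry12 was at 0 in shCtrl libraries 1 and 4, summed to 203, 763 and 178 against 1006, 379 and 1100. The summed markers of vascular cells and fibroblasts, of which Cldn5 was at 0 in 5 of the 6 libraries, were highest in the number 2 libraries, at 2520, 6279 and 2516 in shCtrl libraries 1, 2 and 4 and 3206, 8013 and 3270 in the shYthdf2 libraries. Most of this sum was Col1a1 and Col1a2, collagen genes of fibroblasts. The endothelial markers were mixed. In shYthdf2 libraries 1, 2 and 4, Pecam1 had 31.4, 23.3 and 34.0 and Kdr 128, 92.3 and 106. Both were lowest in library 2, as was Tek (13.6, 7.78 and 17.02), while Flt1 was highest there (18.87, 32.07 and 12.77). Within shCtrl, Pecam1, Kdr and Flt1 were highest in library 2, as the sum was, and Tek was lowest there. Ntn4 had its highest values in the number 2 libraries, as the sum did, and the part of fibroblasts or vascular cells in its values was not tested. Dcc did not share these profiles, with its lowest value in shCtrl library 2. The Purkinje cell markers summed to 2730 to 3254 in shCtrl and 4152 to 4285 in shYthdf2 libraries, and Pcp4 and Rora were among those higher at an unadjusted p under 0.05. Their part in the values of Dcc and Unc5b, which also did not overlap between the groups, was not tested. The granule cell sum was 156845 to 160612 in shCtrl and 141970 to 151445 in shYthdf2 libraries. Of its 10 markers, 3 were lower at an unadjusted p under 0.05, with log2 fold changes of -0.32 (Neurod1), -0.61 (Barhl1) and -0.48 (Cntn2). No marker of the list was higher at that threshold, but the list was mixed in direction. The log2 fold changes of Cbln3 (0.81), Etv1 (0.53), Gabra6 (0.24), Zic1 (0.07) and Rbfox3 (0.05) were above 0. Those of Pax6 (-0.07) and Zic2 (-0.0) were near 0. Over all genes tested, 20.1% passed that threshold in either direction and 9.5% passed it with higher values in shYthdf2 libraries. The sums of proliferating progenitors (741 to 1249 against 1079 to 1491) and unipolar brush cells (3975 to 5416 against 4318 to 5737) overlapped, and that of GABAergic interneurons (7588 to 8489 against 9156 to 10874) did not. Of the 7 GABAergic markers, 1 was higher at an unadjusted p under 0.05. It was Gad1, the largest part of that sum (log2 fold change 0.49, edgeR unadjusted p = 0.00312). The others stood at 0.44 (Gad2), 0.21 (Slc32a1), 0.12 (Lhx5), 0.11 (Pax2), 0.03 (Lhx1) and -0.18 (Pvalb). The unipolar brush cell sum joined genes of opposite direction. Eomes had 1756, 1178 and 1705 in shCtrl libraries 1, 2 and 4 and 360.5, 643 and 327 in the shYthdf2 libraries. Its log2 fold change was -1.80 (edgeR unadjusted p = 3.15e-04), while that of Calb2, the largest part of the sum, was 0.61 (edgeR unadjusted p = 0.0614). None of the marker lists held a gene with an adjusted p under 0.05.

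**Figure D4:**
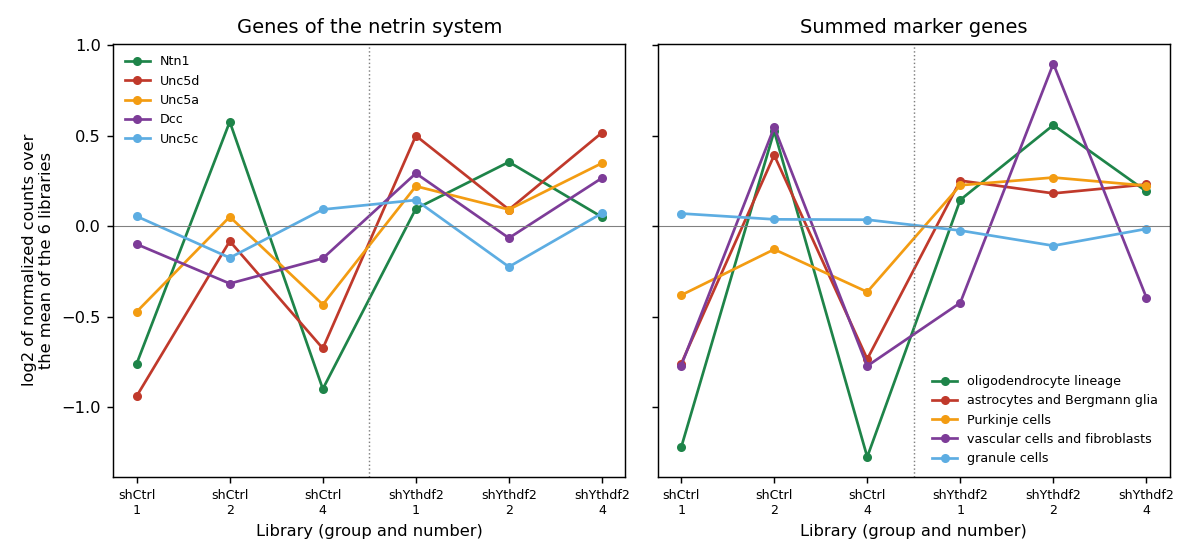
Left, 5 genes of the netrin system, and right, summed marker genes, each as the log2 of normalized counts over the mean of the 6 libraries (y axis) by library (x axis). Ntn1, Unc5d and Unc5a share their 2 lowest values, in shCtrl libraries 1 and 4, with all the marker sums shown except that of granule cells, while Dcc and Unc5c do not.

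Other genes of the pathway were counted from a list of 49, of which 48 were in the table and 47 were tested (Ntn5 was removed by the filter, with 1 to 3 counts in a library). An adjusted p-value under 0.05 in edgeR's test was reached by 1 gene of the 47, against 0.604% of all genes, and an unadjusted p under 0.05 by 13 (27.7%, against 20.1% of all genes), 8 higher and 5 lower in the shYthdf2 libraries. The median log2 fold change was -0.05. The gene past the adjusted threshold was Myo10, a motor protein that carries Dcc and other cargo to the tips of filopodia. Myo10 had 1367, 1501 and 1367 normalized counts in shCtrl libraries 1, 2 and 4 and 2217, 2233 and 2226 in the shYthdf2 libraries. It rose by a log2 fold change of 0.66 ± 0.09 (SE, edgeR adjusted p = 0.0447), with an SD of 8.27 counts over the shYthdf2 libraries. Over 15 alternatives its adjusted p ranged from 1.45e-09 to 0.286, and it passed neither with limma-voom nor without any 1 of libraries 1 and 4 of either group.

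Among the other ligands and extracellular partners, 4 of 11 tested genes (36.4%, against 20.1% of all genes) had an unadjusted p under 0.05, 2 in each direction. Flrt3, a membrane protein that binds Unc5 receptors, had 655 ± 168 normalized counts in shCtrl and 959 ± 52.5 in shYthdf2 libraries (SD, n = 3), a log2 fold change of 0.55 (edgeR adjusted p = 0.156). Its relative Flrt1 had 140.1 ± 28.05 against 93.5 ± 9.58, a log2 fold change of -0.58 (edgeR adjusted p = 0.198), and the latrophilin Adgrl1, a partner of Flrt proteins, stood at -0.32 on the same scale (edgeR adjusted p = 0.177). Each of these 3 genes, named for the smallest p-values, had groups without overlap, as had 26.0% of all genes tested.

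Of the 8 other receptors and Dcc-like proteins, 4 had an unadjusted p under 0.05, all with higher values in the shYthdf2 libraries. Over all genes tested, 20.1% passed this threshold in either direction and 9.5% passed it with higher values in the shYthdf2 libraries. Prtg, a protein of the Dcc family, had 77.85 ± 10.3 normalized counts in shCtrl and 127.5 ± 17.1 in shYthdf2 libraries (SD, n = 3), a log2 fold change of 0.71 (edgeR adjusted p = 0.129). Lrrc4c, the receptor of netrin-G1, had 308, 613 and 295 in shCtrl libraries 1, 2 and 4 against 719, 801 and 749, a log2 fold change of 0.90 (edgeR adjusted p = 0.143). Dscaml1, a relative of the netrin receptor Dscam, had 1087, 1764 and 1046 against 1930, 1837 and 1989 and a log2 fold change of 0.56 (edgeR adjusted p = 0.183). In Lrrc4c and Dscaml1, as in Unc5d and Unc5a, shCtrl library 2 lay closest to the shYthdf2 libraries.

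Among the 28 intracellular partners and effectors, 5 (17.9%, against 20.1% of all genes) had an unadjusted p under 0.05, 2 higher and 3 lower. After Myo10, the smallest p-values were those of Siah2 and Vasp. Siah2, of a family of ubiquitin ligases that includes regulators of Dcc turnover, had 1051 ± 97.15 normalized counts in shCtrl and 656 ± 73.0 in shYthdf2 libraries (SD, n = 3), a log2 fold change of -0.68 (edgeR adjusted p = 0.0585). Vasp, an actin regulator of the growth cone, had 2058 ± 263 against 1452 ± 56.9, a log2 fold change of -0.50 (edgeR adjusted p = 0.0872). The groups did not overlap for either gene, as for 26.0% of all genes tested.

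**Figure D5:**
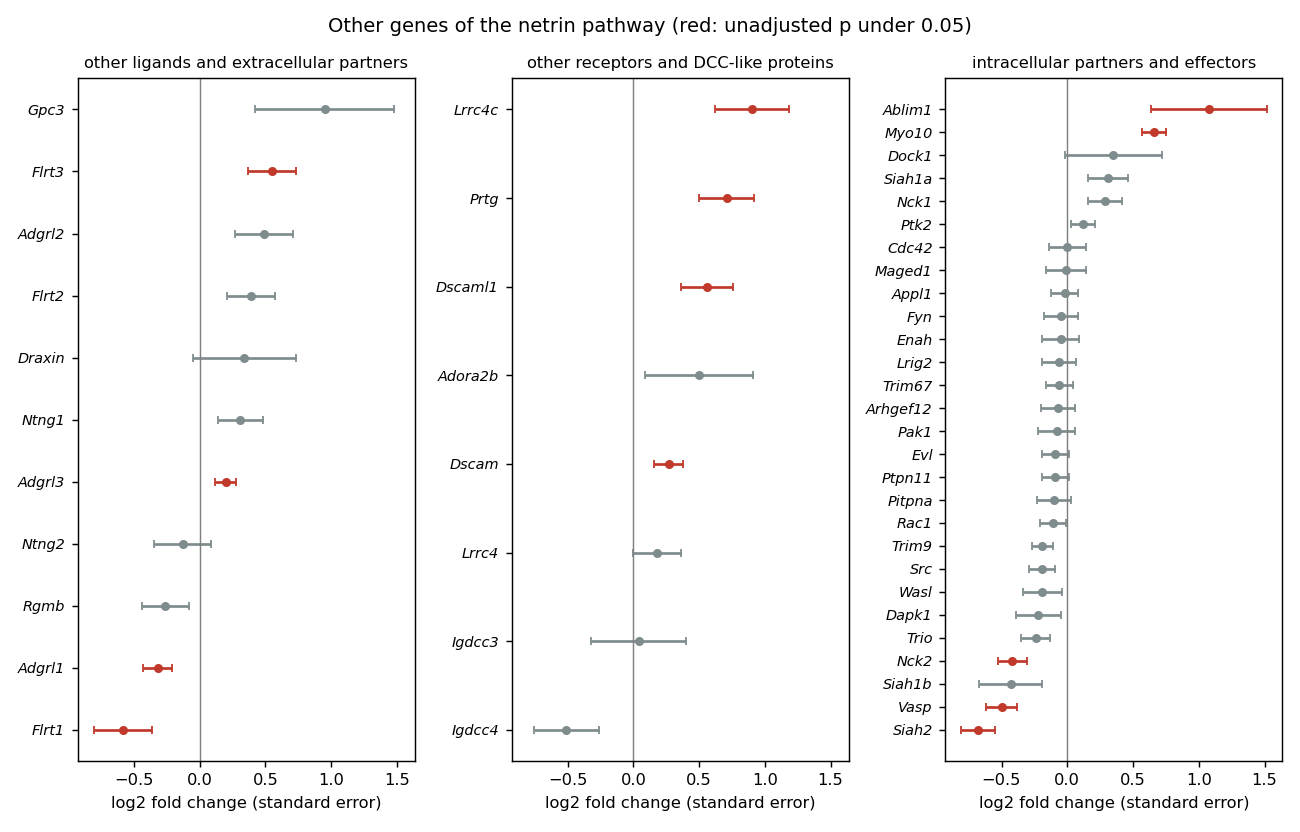
Log2 fold changes (x axis) with standard errors of the 47 tested pathway genes in 3 panels by role, with red for an unadjusted p under 0.05. The receptors lie mostly above 0, with a median of 0.38 over 8 genes, and the intracellular partners centre near 0, with a median of -0.08 over 28.

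The genes most like the 3 members with the highest levels were looked up over the 6 libraries among 11026 genes with a mean of at least 100 normalized counts. The measure was the root mean square distance between log2 profiles centred on their means. Nearest to Unc5b were Adss (0.017), Mzt1 (0.023) and Ptk2 (0.023), the last being the focal adhesion kinase of the pathway list. For Ntn4 they were Apex1 (0.023), Mesd (0.035) and Hist3h2ba (0.042), and nearest to Unc5c was Lnpep (0.017). With 6 libraries and this many genes, such small distances are a description only.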

How the data were processed

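RNA of cultured GCs was sequenced in 6 libraries, 3 shYthdf2 and 3 shCtrl. Per the study's methods, the authors removed low-quality reads, used HISAT and TopHat2 for alignment to GRCm38 and deposited unnormalized HTSeq counts per gene. The submitters' processing notes name mm9 and Bowtie 0.12.2 instead. Reads shared by near-identical genes could be lost in such counting. Genes were named from GENCODE M21 of GRCm38 (52489 of 53421 matched). The test was that of edgeR 4.0.16 under R 4.3.3 (filterByExpr, minimum count 10 and total 15, which removed 36207 genes, TMM, quasi-likelihood test, Benjamini-Hochberg adjustment over all genes). The standard error is the log2 fold change over the root of the F statistic. Normalized counts are at a common library size of 19012094. Alternatives used DESeq2 1.42.0, limma 3.58.1 (voom) and other filters, scalings, blocks and libraries. Deviations from group means correlated between libraries of the same number (0.251, 0.362 and 0.291 for numbers 1, 2 and 4). Deviations cancel within a group, so the number 2 libraries bear on all 3 values, which cannot show pairing of numbers 1 and 4. By root mean square difference, shYthdf2 library 1 lay 0.682 from shCtrl library 1 and 0.696 from shCtrl library 4. For shYthdf2 library 4 these distances were 0.698 and 0.6865. Differences within numbers are descriptions, and the main edgeR test and the permutation tests did not use the numbers. Total counts of 17246821 to 21546595 limit the precision of low genes.

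The genes and lists were chosen with earlier results of these data known. All 9 genes found are named. Of the pathway list, those past the adjusted threshold and the 3 smallest p-values in each role are named. Marker genes named have high counts, are at 0 in a library or have an unadjusted p under 0.05. Not every such gene is named. Pecam1, Tek, Flt1 and some further markers meet none of these, and they and others were chosen after their values were seen. Lists covered glia, microglia, vascular cells and fibroblasts, and the granule, Purkinje, unipolar brush, GABAergic and proliferating cells of the cerebellum. Single values of some marker genes and of some genes with a like profile are not reported here.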

Additional observations from a re-analysis of the deposited data

How the results depend on the processing

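The number of netrin genes past the adjusted threshold was 0 and became 1 with DESeq2 and without the filter, 3 with a term for the number 2 libraries, and 0 to 3 when libraries were left out singly. The number past the unadjusted threshold was 2 and became 4 with the replicate block, 5 with the number 2 term, and 1 to 4 with each library left out, where Unc5d was kept throughout and Unc5a was lost without shCtrl library 1, shCtrl library 4 or shYthdf2 library 4. For the pathway list the adjusted count was 1. It became 5 with DESeq2, 0 with limma-voom, 2 without the filter, 14 with the number 2 term, and 0 to 19 with each library left out. Of all genes tested, 0.604% passed in the main fit, 7.67% with DESeq2 and 22.1% with the number 2 term. With limma-voom 24 of 17214 genes passed, and without the filter 639 of 32277. Its unadjusted count was 13 and became 25 with the number 2 term, where 39.5% of all genes passed, and 6 to 23 with each library left out. Both adjusted maxima came without shCtrl library 2 (3 and 19), where 18.3% of all genes passed. The lowest unadjusted pathway count, 6, came without shCtrl library 4, where 2120 of 17743 genes passed.

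A fit of numbers 1 and 4 alone was added after the data were seen. It called 8 of the 9 netrin genes (all but Unc5c) by the adjusted and 8 by the unadjusted threshold, and 34 and 36 pathway genes. But of all 17422 genes tested it also called 9186 (52.7%) by the adjusted and 10040 by the unadjusted threshold. Over all genes, the adjusted count was 104 and became 1320 with DESeq2, 24 with limma-voom, 639 without the filter, 232 with the replicate block, 3799 with the number 2 term and 9186 with numbers 1 and 4 alone. With each library left out it was 0 to 3239, with 1986 to 6034 at an unadjusted p under 0.05. The log2 fold change of Ythdf2 passed the adjusted threshold at -0.58 with DESeq2, -0.56 with the number 2 term and -0.32 with numbers 1 and 4 alone. That of Unc5c turned below 0 in 3 fits (-0.07 without shCtrl library 2, -0.06 and -0.02 without shYthdf2 libraries 1 and 4), within -0.07 to 0.11.

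The log2 ratio of Unc5 to Dcc and Neo1 differed by -0.0327 between the groups, with -0.109 to 0.0167 when each library was left out. The share of Unc5b differed by -0.686 percentage points and turned to 0.432 over the longest transcript and 1.09 without division by length, with -1.84 to 0.0816 when each library was left out. The replicate block raised the unadjusted pathway count to 19, while the share of all genes past that threshold rose from 20.1% to 31.6%. It changed no adjusted call of the 9 genes or of Myo10. The causes of these changes were not tested. The fold changes of the other 8 genes and of Myo10 did not turn below 0 in any of the 15 alternatives, but that of Rgma was 0.00 without shCtrl library 4. The lowest unnormalized count among the 9 genes was 169.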
